A study of Mus musculus with 33 samples.

Results

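In the Tdgf1 reporter line of a CRISPR mutation screen, 3 GFP-negative libraries were compared with 3 GFP-medium libraries, to ask at which positions guide RNAs (gRNAs) were more frequent in cells that had lost the whole reporter signal and at which in cells that had lost a part of it. The 6 libraries were chosen by their labels from the 33 samples of the series, and every gRNA of the Tdgf1 count table entered except the placeholder guide. This gave 3908 gRNAs with a genomic position on chromosome 9 and 10 GFP-targeting gRNAs, 3918 in all. All were cultured mouse embryonic stem cells, which can form every tissue of the embryo, grown with LIF, GSK-3 inhibitor XV and UO126. They carried a dummy guide at the ROSA26 locus, which a library gRNA could take the place of, and a GFP put in place of sequence at the start site of Tdgf1 transcription. The length of the replaced sequence, the number of reporter alleles, the sort gates and how many cells were sorted are not stated in the labels or files used here. Some gRNAs with a target inside the gene may therefore have no site on the reporter allele, which bears on every share given for positions inside the gene. The unsorted bulk population of the same line, with 3 libraries, is given beside the sorted values as a reference and entered the tests in 1 alternative fit alone. The labels number the replicates of the line 1 to 3 and do not say whether these were separate cultures, so p-values measure the spread between these libraries, which may be technical.

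Tdgf1, also called Cripto, encodes a membrane-anchored co-receptor for Nodal, a signal of the early embryo, and it is active in pluripotent cells. In such a screen Cas9 cuts at the gRNA's target and faulty repair leaves small insertions and deletions. A cut inside the GFP coding sequence can end the reading frame, while a cut in a promoter or enhancer can remove a binding site and lower transcription. Lrrc2, the neighbouring gene, encodes a leucine-rich repeat protein and points away from Tdgf1.

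Positions are on mm10, which matches the GRCm38.p6 gene table used. Tdgf1 lies on the minus strand at chr9:110939608-110946158, so its annotated 5' end is at 110946158, and Lrrc2 lies on the plus strand at chr9:110951545-110984066. Distances below run from the Tdgf1 5' end to the middle of a gRNA's target, and "inside" means in the direction of transcription. The RefSeq promoter sequence of Tdgf1, of which the 250 bases upstream of the 5' end are shown, holds targets of the promoter gRNAs whose counts are given further on. Capitals mark the targets of the gRNAs centred 178 bp and 54 bp upstream, and the sequence is that of the minus strand, chr9:110946159-110946408.
Tdgf1 promoter: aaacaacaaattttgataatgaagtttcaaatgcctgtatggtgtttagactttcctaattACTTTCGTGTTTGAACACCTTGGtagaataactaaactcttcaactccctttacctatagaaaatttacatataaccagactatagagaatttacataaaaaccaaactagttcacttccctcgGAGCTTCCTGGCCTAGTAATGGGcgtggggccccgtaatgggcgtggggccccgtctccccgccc

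The 3 named gRNAs with a target in the RefSeq promoter window all lie on the minus strand. They are shown 5' to 3' with the PAM, the 3 bases that Cas9 needs beside its target, in capitals.
centred 178 bp upstream: actttcgtgtttgaacacctTGG
centred 54 bp upstream: gagcttcctggcctagtaatGGG
centred 29 bp inside: acaccttaagtttcttttaaGGG
The target at 54 bp upstream ends in the first copy of a stretch of 19 bases that the promoter holds in 2 copies in a row. Each copy contains GGGCGTGG, a G-rich motif of the kind bound by zinc finger proteins of the KLF family. Searched on both strands, GGGCGTGG had 2 matches in the 300-base Tdgf1 window, and 5.33% of 32851 RefSeq promoters of that length hold a match. TATAAA had no match in the Tdgf1 window and occurs in 13.6% of the promoters. These matches describe letters and not bound sites.

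GFP-negative libraries held 608532 to 719247 gRNA counts and GFP-medium libraries 379072 to 461825, against 107960 to 123840 in bulk. They were drawn from fewer gRNAs: 992 to 2106 were detected in a GFP-negative library, 533 to 1198 in a GFP-medium library and 3455 to 3635 in a bulk library. The 10 most counted gRNAs took 9.90% to 13.5% of GFP-negative and 16.0% to 28.1% of GFP-medium counts. Of the 3918 gRNAs, 1224 had no count in any of the 6 sorted libraries. Classes and windows are given by their share of a library's gRNA counts, and single gRNAs by CPM, the count scaled to an equal library total, so each value is relative to the rest of its library.

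The GFP-targeting gRNAs, the positive controls, were far more frequent in GFP-negative than in GFP-medium cells. Together they took 4.53%, 8.41% and 6.62% of the counts in GFP-negative replicates 1, 2 and 3. In GFP-medium replicates 1, 2 and 3 they took 0.155%, 0.408% and 0.0378%, and in bulk 0.186% to 0.242%. All GFP-negative libraries lay above all GFP-medium ones, and the GFP-medium mean of 0.200% ± 0.189 was close to the bulk mean of 0.210% ± 0.0289 (SD, n = 3 each). That mean averages unlike values, and each GFP-medium library lay outside the bulk range. The log2 ratio of GFP-negative to GFP-medium was 5.03 (SE 0.817, adjusted p = 0.00106, edgeR quasi-likelihood test on summed counts).

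Of the 10 GFP-targeting gRNAs, 8 were higher in every GFP-negative library than in every GFP-medium library. Over all 3918 gRNAs, 2.12% were so ordered. The GFP-targeting gRNA 4 had the highest single-library value of this group, with 7837, 12368 and 27395 CPM in the GFP-negative libraries against 175, 79.1 and 271 CPM in the GFP-medium ones. The GFP-targeting gRNA 9 had 8679, 6550 and 9360 CPM against 132, 2.64 and 37.8 CPM. The GFP-targeting gRNA 2 had 837, 321 and 184 CPM against no count in any GFP-medium library, at least 63.7-fold higher when 3 counts per GFP-medium library are taken as the limit.

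The exceptions were gRNAs 7 and 8. The GFP-targeting gRNA 7 was detected in 1 of the 3 bulk libraries, replicate 2, and had 0, 841 and 472 CPM in the GFP-negative and 0, 55.4 and 0 CPM in the GFP-medium libraries. The GFP-targeting gRNA 8 had 1435, 7608 and 2488 CPM in the GFP-negative and 47.6, 3279 and 0 CPM in the GFP-medium libraries. The single value of 3279 CPM was 80.4% of all GFP-targeting counts of GFP-medium replicate 2.

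**Figure D1:**
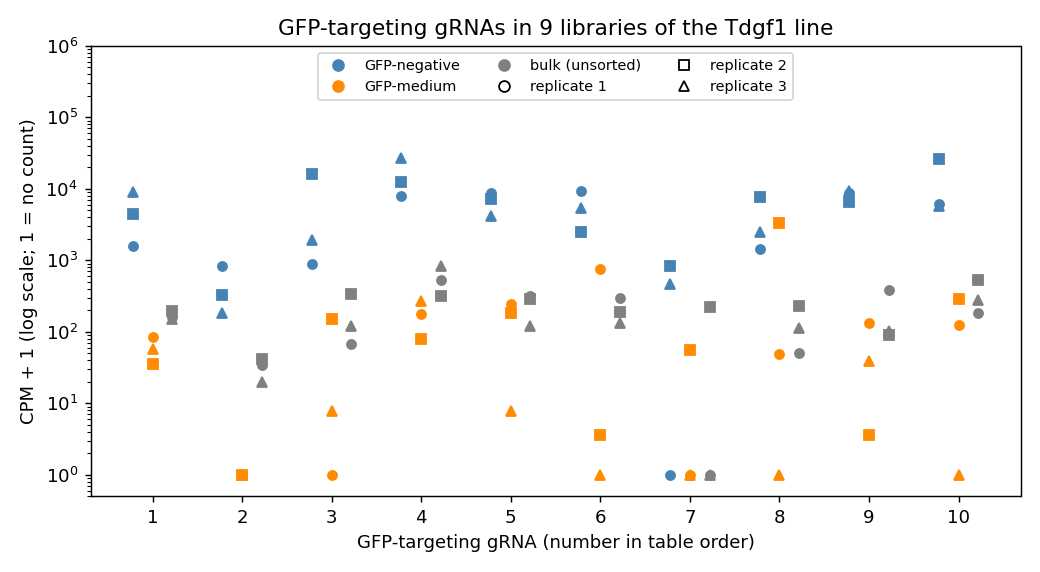
CPM plus 1 (log scale, where 1 means no count) of the 10 GFP-targeting gRNAs in the 9 libraries of the Tdgf1 line, by colour for population and by symbol for replicate. For 8 of the 10 gRNAs the 3 GFP-negative points lie above the 3 GFP-medium points.

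The gRNAs with a position fell into 8 classes, which with the GFP-targeting gRNAs makes 9. At an adjusted p of 0.05 in edgeR, 2 of the 9 were called higher in GFP-negative than in GFP-medium libraries and 2 lower, 22.2% of the classes in each direction. The lower ones were both at the 5' end of Tdgf1. The 122 core promoter gRNAs, within 500 bp of the 5' end, took 9.71%, 11.6% and 16.3% of GFP-negative counts and 22.1%, 27.2% and 24.3% of GFP-medium counts, against 3.43% to 3.53% in bulk. The 120 gRNAs of the 5' gene part, 500 bp to 2 kb inside, took 4.43%, 4.93% and 5.15% of GFP-negative counts and 13.0%, 11.4% and 15.2% of GFP-medium counts, against 3.50% to 3.73% in bulk.

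In both classes every GFP-negative library lay below every GFP-medium library. The core promoter had a log2 ratio of -0.97 (SE 0.266, adjusted p = 0.0186) and the 5' gene part one of -1.45 (SE 0.232, adjusted p = 0.00106, both edgeR). In means, the core promoter share was 1.96-fold and the 5' gene part share 2.73-fold higher in GFP-medium cells. The GFP-negative share of the 5' gene part, 4.83% ± 0.370, was closer to its bulk share of 3.63% ± 0.123 (SD, n = 3 each). The core promoter share was well above bulk in both sorted populations, 12.5% ± 3.37 and 24.5% ± 2.56 against 3.47% ± 0.0503.

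The proximal upstream class, 500 bp to 2 kb before the 5' end, did not pass the test. Its 214 gRNAs took 17.8%, 17.1% and 20.8% of GFP-negative counts and 17.4%, 24.9% and 26.9% of GFP-medium counts, against 5.51% to 6.08% in bulk. The ranges overlapped, and the log2 ratio was -0.31 (SE 0.252, adjusted p = 0.317, edgeR). The share was above bulk in all 6 sorted libraries.

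Away from the 5' end the order turned. The 1276 gRNAs downstream of Tdgf1, a stretch with no other annotated gene of the table, took 18.4%, 17.4% and 12.7% of GFP-negative counts and 10.8%, 6.51% and 5.82% of GFP-medium counts, against 28.1% to 28.9% in bulk. Both sorted populations lay below bulk, GFP-medium further than GFP-negative, with no overlap and a log2 ratio of 1.07 (SE 0.310, adjusted p = 0.0186, edgeR). The 1242 gRNAs in the Lrrc2 body took 22.4%, 19.7% and 17.9% against 17.1%, 8.65% and 10.4%, which did not overlap (log2 ratio 0.73, SE 0.302, adjusted p = 0.0737, edgeR). With replicate numbers as a block the Lrrc2 body passed the test, at an adjusted p of 0.0170 in edgeR.

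The other 3 classes did not pass. The 204 gRNAs at the Lrrc2 end facing Tdgf1 had 5.75% ± 1.20 of GFP-negative counts and 4.05% ± 0.424 of GFP-medium counts. The 253 gRNAs of the intergenic stretch more than 2 kb upstream had 7.93% ± 1.40 and 6.12% ± 3.01. The 477 gRNAs of the remaining Tdgf1 body had 7.71% ± 1.62 and 9.06% ± 1.55 (SD, n = 3 each). Their log2 ratios were 0.51, 0.37 and -0.23.

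**Figure D2:**
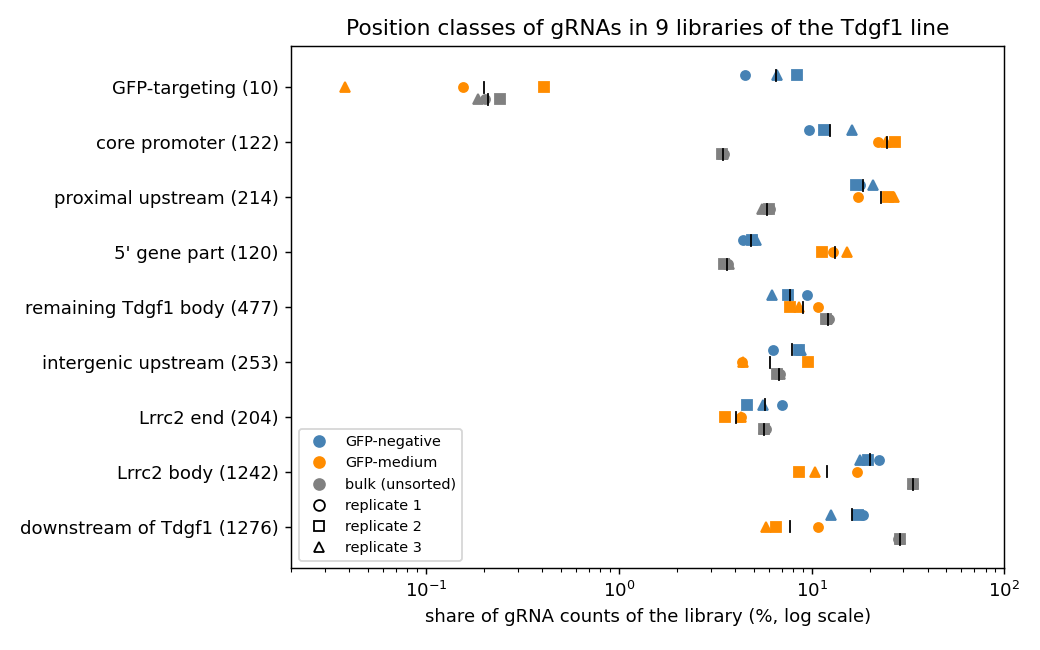
Share of gRNA counts (percent, log scale) of each class in the 9 libraries, with the number of gRNAs in brackets, points for libraries and black ticks for means of 3. Core promoter and 5' gene part lie further right in GFP-medium than in GFP-negative libraries, and GFP-targeting gRNAs the other way round.

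These shares depend on what the libraries are scaled to. Scaled to gRNAs over 5 kb from the 5' end alone, the median log2 ratio of the 9 classes moved from 0.37 to -0.54. The 5' gene part then had -2.32, the remaining Tdgf1 body -1.10 and the proximal upstream class -1.23, all past the test, and the downstream class 0.25, no longer past it (adjusted p = 0.187, edgeR), so that 1 class was higher and 4 were lower. Scaled to gRNAs within 2 kb alone, the 5' gene part remained lower at -0.69 (adjusted p = 5.9e-04), the core promoter was at -0.23 (adjusted p = 0.100), and the proximal upstream class turned to 0.46 (adjusted p = 0.00576, edgeR). Only these 3 classes were tested in that fit. Their counts make up its total, so a lower share of 1 class goes with a higher share of the rest. The 5' gene part was lower and past the test in each of these fits and with each library left out, whereas the core promoter and the downstream class each lost the call without GFP-negative replicate 1 (adjusted p = 0.0725) or without GFP-negative replicate 2 (adjusted p = 0.0744, edgeR).

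Leaving the GFP-targeting gRNAs out of the totals changed the shares little. The core promoter then took 13.4% ± 3.68 of GFP-negative counts and 24.6% ± 2.60 of GFP-medium counts, the 5' gene part 5.18% ± 0.473 and 13.2% ± 1.91, and the downstream class 17.3% ± 3.23 and 7.73% ± 2.70 (SD, n = 3 each). Their log2 ratios were -0.87, -1.35 and 1.16. The Lrrc2 body passed the test in these totals, with a log2 ratio of 0.82 (adjusted p = 0.00964, edgeR). In an exact permutation test (2-sided), 3 libraries against 3 cannot go below p = 0.1. The GFP-targeting, core promoter, 5' gene part, Lrrc2 end, Lrrc2 body and downstream classes reached that value, and with adjustment over the 9 classes it was 0.15.

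The higher share of the 5' gene part and the core promoter in GFP-medium cells was seen in many of their gRNAs. Of 114 gRNAs of the 5' gene part with a count, 61 had a higher mean CPM in GFP-medium than in GFP-negative libraries, and in the core promoter the numbers were also 61 of 114. Over all 2694 gRNAs with a count, 818 did, or 30.4%. The proximal upstream class had 79 of 195, and the downstream class 167 of 727. The most counted gRNA made up 14.5% to 22.7% of the 5' gene part's counts in a GFP-medium library, against 4.83% to 15.0% in a GFP-negative one.

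Larger shares did not come with more kinds of gRNA. At an equal depth of 379072 counts, 39.7%, 54.2% and 30.6% of the gRNAs in the 5' gene part were expected to be detected in GFP-medium libraries and 55.2%, 73.8% and 50.3% in GFP-negative ones. For the core promoter the values were 52.8%, 71.3% and 47.7% against 60.2%, 88.8% and 60.5%. Over all gRNAs they were 20.8%, 30.6% and 13.5% against 29.2%, 52.8% and 24.8%. In each replicate number the GFP-negative library held more kinds of gRNA, both at the 5' end and overall.

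In windows of 1 kb, counted from the 5' end, the first kb inside the gene held a smaller share of GFP-negative than of GFP-medium counts in every library. Its 95 gRNAs took 6.31%, 8.08% and 6.20% of GFP-negative counts and 18.5%, 23.1% and 19.1% of GFP-medium counts, against 2.90% to 3.10% in bulk. The GFP-medium mean was 2.95-fold higher, with no overlap, and 60 of the 89 gRNAs with a count had a higher mean in GFP-medium cells. The log2 ratio was -1.56 (SE 0.460, unadjusted p = 0.00891, adjusted p = 0.100, edgeR). It thus missed the threshold of 0.05. It passed in DESeq2 (adjusted p = 2.0e-07), and in edgeR with TMM scaling (-2.34, adjusted p = 0.0231) and with the bulk libraries in the fit (adjusted p = 0.00635). In edgeR it also passed scaled to gRNAs over 5 kb away (-2.46, adjusted p = 0.0201) or within 2 kb (-0.78, adjusted p = 0.00602 over 4 windows). It missed the threshold in limma (adjusted p = 0.0713), with the replicate block (0.116), with totals without GFP-targeting gRNAs (0.0974), without its highest gRNA (0.105) and with each library left out in turn (0.0550 to 0.302, edgeR).

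The first kb upstream had nearly the same share in both populations. Its 142 gRNAs took 15.1%, 12.6% and 17.3% of GFP-negative counts and 17.9%, 15.6% and 17.0% of GFP-medium counts, a log2 ratio of -0.17 (SE 0.447, adjusted p = 0.855, edgeR). Per library, the counts in the first kb inside were 0.419, 0.643 and 0.359 times those in the first kb upstream in GFP-negative cells. In GFP-medium cells the ratios were 1.03, 1.48 and 1.13, and in bulk 0.750 to 0.817. For this ratio the sorted populations lay on either side of bulk, and it was lower in GFP-negative cells in 3 of 3 replicate numbers (log2 differences of -1.30, -1.20 and -1.65). This ratio needs no scaling of the libraries. Its exact permutation p, which does not use the replicate numbers, was 0.1, the smallest possible, and 0.15 after adjustment over 3 such ratios. The ratio uses the same counts as the window test, so it is not separate support, and the adjustment does not cover the other windows. The first kb inside over the second kb upstream gave 0.795, 0.787 and 0.399 in GFP-negative and 1.58, 1.21 and 0.810 in GFP-medium cells (exact permutation p = 0.1, adjusted 0.15). These did not overlap, but 2 GFP-negative values and 1 GFP-medium value lay within the bulk range of 0.771 to 0.830. The second over the first kb upstream gave 0.748 ± 0.195 and 1.09 ± 0.386 (SD, n = 3 each), with an exact permutation p of 0.3.

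The other windows near the promoter were less clearly apart. The second kb upstream, with 141 gRNAs, took 7.95%, 10.3% and 15.5% of GFP-negative counts and 11.7%, 19.2% and 23.6% of GFP-medium counts, which overlapped (log2 ratio -0.69, SE 0.521, adjusted p = 0.460, edgeR). The second kb inside, with 78 gRNAs, took 2.59%, 2.78% and 3.21% against 4.31%, 5.66% and 6.71%, which did not overlap (log2 ratio -0.96, SE 0.462, adjusted p = 0.254, edgeR). Beyond 2 kb on either side no window had its 3 GFP-negative libraries below its 3 GFP-medium ones.

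Of the 41 windows with positions, 4.88% had all GFP-negative libraries below all GFP-medium ones, namely the first and second kb inside, and 24.4%, or 10 windows, had them all above. These 10 lay 3 kb or more from the 5' end, and 9 of them 10 kb or more. With the GFP-targeting gRNAs as a further feature 42 were tested, and edgeR called 2 of them, or 4.76%, higher in GFP-negative libraries and 0 (0%) lower. At an unadjusted p under 0.05 it had 8 and 1, and DESeq2 called 4 and 1.

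The only positional window that edgeR called was 16 to 17 kb in the direction of transcription, past the 3' end of Tdgf1, at chr9:110929152-110930169. Its 42 gRNAs took 1.50%, 0.807% and 0.229% of GFP-negative counts and 0.0139%, 0.0417% and 0.00489% of GFP-medium counts, against 1.04% to 1.15% in bulk. GFP-negative values spread around the bulk level and GFP-medium values lay far below it, a 42.0-fold ratio of the means (log2 ratio 5.39, SE 1.08, adjusted p = 0.0195, edgeR). Of its gRNAs, 33 had no count in any GFP-medium library and 19 none in any GFP-negative one. Among all 3918 gRNAs these numbers were 2164 and 1331, and among the 1276 of the downstream class 887 and 581. Missing counts were thus common in that class as a whole. The call was lost without GFP-negative replicate 2 (adjusted p = 0.0627), GFP-medium replicate 1 (0.0701) or GFP-medium replicate 2 (0.0505, edgeR). Without its highest gRNA the window still passed, with a log2 ratio of 4.69 (adjusted p = 0.0329, edgeR).

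**Figure D3:**
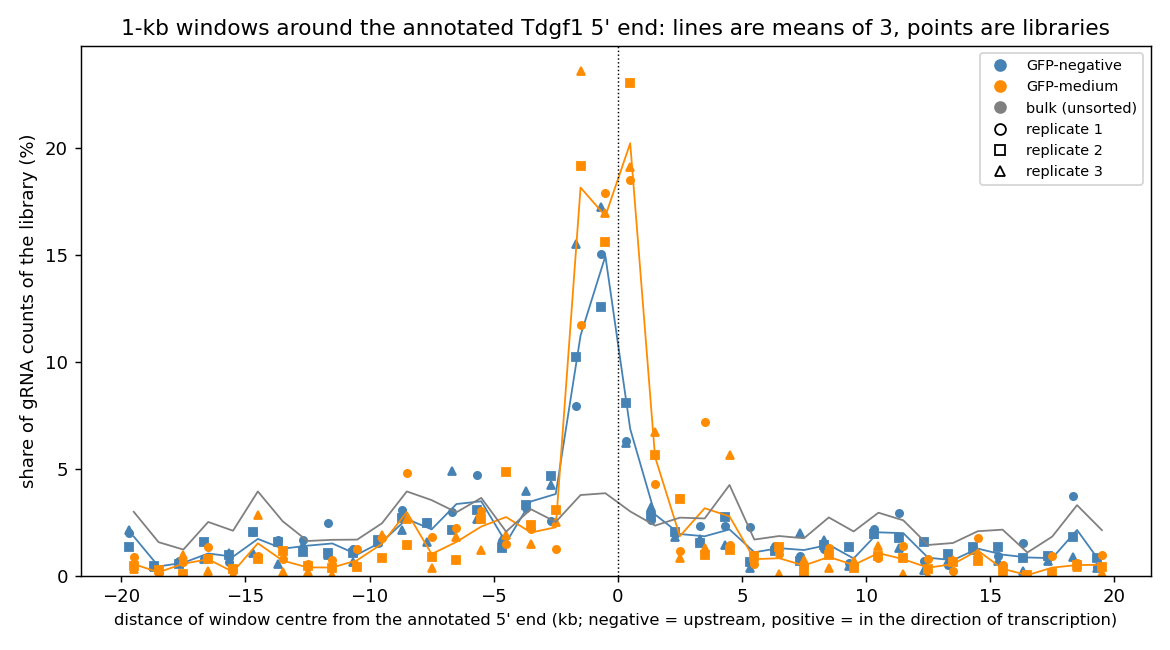
Share of gRNA counts (percent) in 1-kb windows by distance from the annotated 5' end of Tdgf1 in kb, with points for sorted libraries and lines for means of 3 including bulk. The first kb inside the gene holds 18.5% to 23.1% of GFP-medium counts, against 6.20% to 8.08% of GFP-negative counts.

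Windows of 250 bp placed the difference more finely. In 5 adjacent windows, from 250 bp upstream to 1 kb inside, all 3 GFP-negative libraries lay below all 3 GFP-medium ones. Of 150 such windows, 4% were so ordered, 6 in number, and the remaining one lay 1.75 to 2 kb inside. In the other direction 18% were ordered. In some of the 5 adjacent windows, much of the share of a GFP-medium library came from a single gRNA.

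The window of the last 250 bp before the 5' end took 1.83%, 2.34% and 5.15% of GFP-negative counts and 8.45%, 5.26% and 8.24% of GFP-medium counts. Most of the 8.45% in GFP-medium replicate 1 came from the gRNA centred 178 bp upstream, at 49679 CPM. The first 250 bp inside took 3.33%, 4.44% and 2.78% of GFP-negative counts against 6.99%, 12.2% and 7.39% of GFP-medium counts. Much of the 7.39% in GFP-medium replicate 3 came from the gRNA centred 110 bp inside, at 34202 CPM. The window from 500 to 750 bp inside had the largest ratio of the means among the 5, with 0.947%, 0.887% and 0.562% against 5.31%, 2.14% and 4.01%, where 15 of 19 gRNAs with a count had a higher mean in GFP-medium cells. Bulk libraries had 0.467% to 0.621% there, so that GFP-negative cells were near bulk and GFP-medium cells above it. However, most of the 4.01% in GFP-medium replicate 3 came from the gRNA centred 588 bp inside alone, at 34630 CPM. Of the 20 gRNAs in this window, 0 had a count in all 3 GFP-medium libraries.

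Just upstream the order did not hold. From 500 to 250 bp upstream the libraries had 3.41%, 3.37% and 6.87% in GFP-negative and 3.82%, 4.60% and 5.46% in GFP-medium cells, which overlapped. From 750 to 500 bp upstream they had 7.00%, 4.48% and 3.27% against 4.72%, 3.16% and 1.97%, which also overlapped, and for 28 of 38 gRNAs with a count the GFP-negative mean was the higher one, near the 69.6% over all gRNAs with a count. Further away, 1.5 to 1.25 kb upstream, the mean was higher in GFP-medium cells, with 4.19%, 10.9% and 11.7% against 2.58%, 2.75% and 7.35% in GFP-negative cells. These values also overlapped (log2 ratio -1.08, SE 0.883, adjusted p = 0.701, edgeR).

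No single window of 250 bp passed the test. Of 151 features, edgeR called 0 (0%) higher and 0 (0%) lower at an adjusted p of 0.05, with 14 and 1 at an unadjusted p under 0.05, and limma on log2 CPM called 4 and 0. The window 500 to 750 bp inside was the 1 lower at the unadjusted threshold (log2 ratio -2.26, SE 0.823, unadjusted p = 0.0275, adjusted p = 0.348, edgeR). Without the highest gRNA of each window, 15 features were higher and 0 lower at that threshold in edgeR.

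**Figure D4:**
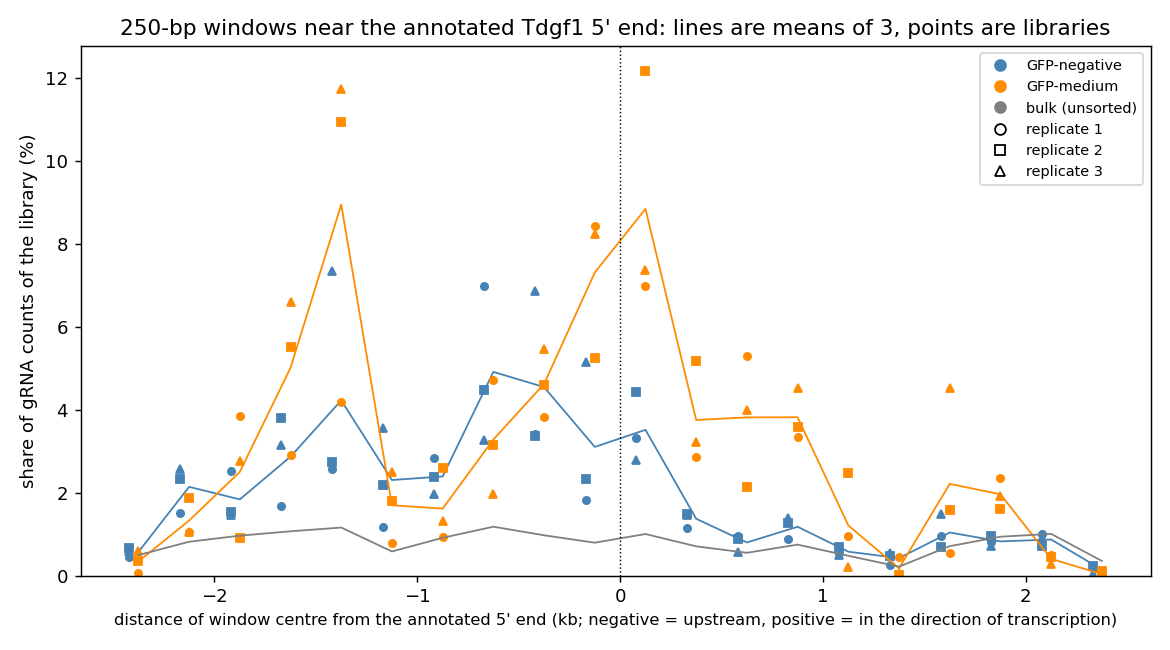
Share of gRNA counts (percent) in 250-bp windows up to 2.5 kb from the annotated Tdgf1 5' end, by distance in kb, with points for sorted libraries and lines for means of 3 including bulk. From 250 bp upstream to 1 kb inside the GFP-medium points lie above the GFP-negative ones in all 5 windows.

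The calls on single gRNAs depended on the tool. Of 929 gRNAs tested, edgeR called 0 (0%) higher and 0 (0%) lower, with 15 and 0 before adjustment. The numbers called were 10 and 2 in DESeq2 and 1 and 0 in limma-voom. Of the 3918 gRNAs, 83 had all 3 GFP-negative CPM above all 3 GFP-medium CPM and 11, or 0.281%, had them all below. All 11 had a mean of at least 100 CPM over the 6 libraries. Of these, 5 lay among the 122 gRNAs of the core promoter (4.10%), 4 among the 214 of the proximal upstream class (1.87%) and 0 among the 120 of the 5' gene part. The remaining ones were 1 intergenic and 1 downstream gRNA. This order needs a count in all 3 GFP-medium libraries, which 153 of all 3918 gRNAs had. In the core promoter 35 had one, in the proximal upstream class 43 and in the 5' gene part 9. These shares therefore also reflect detection, and the 0 says little about the 5' gene part.

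At the promoter, the gRNA centred 54 bp upstream (chr9:110946201-110946223), beside the repeated stretch shown above, had all GFP-medium values above all GFP-negative ones. It had 397, 70.9 and 350 CPM in the GFP-negative and 4588, 2052 and 7142 CPM in the GFP-medium libraries, against 309 to 590 CPM in bulk, a 16.8-fold ratio of the means. The GFP-negative values lay within or below the bulk range and the GFP-medium values above it. This gRNA was named for its separation and ratio, and it did not pass in edgeR (adjusted p = 0.999). Its neighbours were mixed, each with overlapping libraries. Those centred 43, 55 and 59 bp upstream had higher GFP-negative means, at 55 bp 908 against 345 CPM. Those centred 47, 48 and 49 bp upstream had higher GFP-medium means. The gRNA centred 29 bp inside (chr9:110946118-110946140) had 2999, 2683 and 3244 CPM against 22026, 5793 and 13399 CPM, 4.62-fold higher in GFP-medium cells and above bulk in both populations.

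The gRNA centred 110 bp inside (chr9:110946037-110946059), the highest by mean CPM within 2 kb, had 2123, 3869 and 161 CPM in the GFP-negative and 4816, 18440 and 34202 CPM in the GFP-medium libraries, without overlap. The gRNA centred 1610 bp upstream (chr9:110947758-110947779) had 0, 3298 and 1587 CPM in the GFP-negative and 6507, 5382 and 18496 CPM in the GFP-medium libraries, also without overlap. Some other highly counted gRNAs rested largely on a single library. The gRNA centred 178 bp upstream (chr9:110946325-110946347) had 49679 CPM in GFP-medium replicate 1 and none in replicate 3. The gRNA centred 588 bp inside (chr9:110945559-110945581) had 34630 CPM in GFP-medium replicate 3, 768 CPM in replicate 2 and none in replicate 1. The gRNA centred 1523 bp inside (chr9:110944624-110944646) had 34634 CPM in GFP-medium replicate 3 and 7743 CPM in the GFP-negative library of the same number, and no count in either library of replicate 1.

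The stretch 1.5 to 1.25 kb upstream, where the libraries overlapped, held several gRNAs with more counts in GFP-medium cells. There, the gRNA at chr9:110947522-110947544 had 1082, 320 and 166 CPM in the GFP-negative and 1347, 4867 and 31212 CPM in the GFP-medium libraries, without overlap. The ratio of the means was 23.9-fold and rested on replicate 3, without which it was 4.43-fold. It was among the 2 gRNAs that DESeq2 called lower in GFP-negative libraries. Nearby, the gRNA at chr9:110947437-110947459 had 1375, 355 and 1375 CPM against 4545, 4382 and 19613 CPM, also without overlap. That lack of overlap was a condition for naming it, so it says nothing about the stretch. Another gRNA, at chr9:110947445-110947467, whose target overlaps the last one and which was chosen for deep sequencing, had 2945, 1192 and 11012 CPM against 4562, 6846 and 14044 CPM, which overlapped, all above its 267 to 676 CPM in bulk.

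The list of Tdgf1 sites for deep sequencing gave 3 more intervals, and the gRNAs there were each absent from several sorted libraries. That at chr9:110947457-110947478 had counts in replicate 1 alone among the sorted libraries, at 137 and 84.4 CPM in the GFP-negative and GFP-medium cells. At 11.7 kb to 11.9 kb in the direction of transcription, past the gene, the gRNA at chr9:110934270-110934292 was found in replicate 2 alone among the sorted libraries, at 185 and 448 CPM. No gRNA had exactly the listed interval, chr9:110934270-110934293, and this one shares its start. Its neighbour at chr9:110934426-110934448 had 7570, 172 and 0 CPM in GFP-negative libraries and no count in GFP-medium ones.

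In the upstream class, gRNAs of the opposite kind were also present. The gRNA at chr9:110946803-110946825, centred 656 bp upstream, had 515, 788 and 1398 CPM in GFP-negative libraries and 0, 10.6 and 0 CPM in GFP-medium ones, against 167 to 326 CPM in bulk. It was named for this separation and its ratio, and it was above bulk in every GFP-negative library. Of the 63 gRNAs with a mean of at least 100 CPM that were higher in all GFP-negative libraries, or 1.61% of all 3918, 8 were GFP-targeting and 11 proximal upstream (5.14% of that class). This order needs a count in all 3 GFP-negative libraries. Of the 214 proximal upstream gRNAs 73 had one, against 399 of all 3918, so the 5.14% also reflects detection and is not read as a trait of the class. The core promoter had 2 (1.64%), the Lrrc2 body 16 (1.29%) and the downstream class 15 (1.18%), near the share over all gRNAs, and the 5' gene part had 0 of 120.

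The distal gRNAs named for their large ratios differed among themselves when set beside bulk. The gRNA at chr9:110959667-110959689, in the Lrrc2 body, had 1157, 93.2 and 281 CPM in the GFP-negative and 0, 0 and 2.23 CPM in the GFP-medium libraries, against 2039, 468 and 398 CPM in bulk. Each GFP-negative value was below the bulk value of the same number. The gRNA at chr9:110929214-110929236, in the window 16 to 17 kb past the 5' end, had 8440, 845 and 477 CPM against no count in GFP-medium libraries and 259 to 485 CPM in bulk. Each of its GFP-negative values was above the bulk value of the same number, and it was the 1 gRNA that limma-voom called.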

How the data were processed

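The values were counts of gRNAs per library in a table deposited by the authors, with positions on mm10 per the submitters' processing notes. The labels and files used here do not state the counting program, and no molecular identifiers are named. Target intervals, whose unit is a base position in the authors' deposited table, were moved by 1 base, since all 35 targets in the Tdgf1 and all 44 in the Lrrc2 promoter window then have a PAM, against 13 and 11 as deposited. The site list deposited by the authors was used as given, with 1 of 4 Tdgf1 sites matched by its start alone. Promoters, gene spans and strands were from RefSeq (GRCm38.p6).

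Single gRNAs were tested with edgeR 4.0.16 (filterByExpr, minimum count 10, TMM, 2-sided quasi-likelihood test, Benjamini-Hochberg at 0.05). Counts summed per class, 1-kb window (at least 5 gRNAs) or 250-bp window (at least 3) had the same test and adjustment, scaled to library totals without the placeholder. Their main fits used a common dispersion, without filterByExpr, TMM, an abundance trend or robust estimation, all of which the single-gRNA fit used. Scripts were tested on simulated data. Alternatives used DESeq2 1.42.0, limma 3.58.1, other scalings, filters and grids, and left out each replicate. Plots were drawn with matplotlib 3.10.9.

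Same-numbered GFP-negative and GFP-medium libraries deviated together from their population means (correlations of log2(CPM + 10) of 0.44, 0.36 and 0.41 for replicates 1, 2 and 3, against -0.26 to -0.14 for different numbers), so the data show that the numbers pair the samples. The labels name them as replicates of the line.

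Named gRNAs are the 10 GFP-targeting ones, the 10 most counted within 2 kb, those with a mean of at least 100 CPM and complete separation (the 5 with the largest ratio per direction), those at sites listed for deep sequencing, and any past the adjusted threshold (there were 0). Members, lists and classes were chosen with earlier results of these data known.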

Additional observations from a re-analysis of the deposited data

How the results depend on the processing

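Calls for position classes numbered 2 higher and 2 lower. They were 4 and 2 with all 9 libraries in the fit or without the highest gRNA of each class, and 1 and 4 scaled to gRNAs over 5 kb away. Scaled to gRNAs within 2 kb, an alternative chosen after seeing the data, only 3 classes were tested, with 1 higher and 1 lower. Leaving out 1 library gave 1 to 3 higher and 1 to 2 lower. The core promoter ratio was -0.23 scaled to gRNAs within 2 kb, and -1.20 to -0.81 with 1 library left out. The downstream ratio was 0.25 scaled to gRNAs over 5 kb away, and 0.90 to 1.39 with 1 library left out. The proximal upstream ratio was -1.23 and 0.46 under these scalings. Scaled to gRNAs over 5 kb away, the intergenic class had -0.54, the Lrrc2 end -0.38 and the Lrrc2 body -0.069, each with its sign turned. Scaled to gRNAs within 2 kb, the first kb upstream turned to 0.57 and the second to 0.065. The mean log2 difference in share of the remaining Tdgf1 body turned to 0.0022 without its highest gRNA, whereas the fitted ratio stayed negative at -0.040.

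For 1-kb windows 2 were higher and 0 lower. This became 8 and 2 with all 9 libraries, and 4 and 1 in DESeq2. Scaled to gRNAs within 2 kb, only 4 windows were tested, with 1 higher and 1 lower. The number higher was 1 without GFP-targeting gRNAs in the totals, where they were also not tested as a feature and 41 windows remained. With windows shifted by 500 bp it was 1 of 42 features, and with 1 library left out 0 to 2. The number lower was 1 with TMM or scaled to gRNAs over 5 kb away. The 250-bp windows had 4 higher with all 9 libraries and 4 in limma, and single gRNAs 10 higher and 2 lower in DESeq2 and 1 higher in limma-voom, against 0 in edgeR. With the replicate block, which pairs libraries by number, the classes were 3 higher and 2 lower, and the Lrrc2 body had a log2 ratio of 0.79. The block changed no other call. Counts are PCR reads without molecular identifiers, and few gRNAs made up each sorted library, so single gRNAs are uncertain however many reads they have.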

Other observations

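The GFP-medium libraries shared most of their gRNAs with the GFP-negative library of the same number. Of the gRNAs detected in GFP-medium replicates 1, 2 and 3, 83.1%, 90.6% and 82.6% were also detected in the GFP-negative library of that number, which held 1183, 2106 and 992 gRNAs. With different numbers the share was 41.6% to 78.6%. The other way round, 58.1%, 51.5% and 44.4% of the gRNAs detected in GFP-negative replicates 1, 2 and 3 were found in the same-numbered GFP-medium library. Pearson correlations of log2(CPM + 10) over the 3918 gRNAs, which are not independent replicates, were 0.60, 0.54 and 0.54 within a number. They were 0.23 to 0.34 between the GFP-negative libraries, 0.22 to 0.30 between the GFP-medium libraries and 0.64 to 0.71 between the bulk libraries.

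Of 3918 gRNAs, 940 had counts in GFP-negative and none in GFP-medium libraries, and 107 the reverse. The 107 were 2.73% of all gRNAs and included 0 of 122 in the core promoter, 3 in the 5' gene part (2.50%), 4 in the proximal upstream class (1.87%), 50 in the Lrrc2 body (4.03%) and 32 downstream of Tdgf1 (2.51%). The 940 were 24.0% of all gRNAs and included 14 in the core promoter (11.5%), 21 in the 5' gene part (17.5%), 20 in the proximal upstream class (9.35%), 332 in the Lrrc2 body (26.7%) and 338 downstream of Tdgf1 (26.5%). The placeholder guide, left out of all totals, made up 0.104% to 0.370% of GFP-negative, 0.0198% to 0.178% of GFP-medium and 3.53% to 11.3% of bulk counts.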
